A study of Homo sapiens with 9 samples.

Results

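H2030 cells transfected with siRNA against all isoforms of ENAH (siMENA) were compared with H2030 cells transfected with a non-targeting siRNA pool (control). The comparison took 6 of the 9 libraries of the series, 3 of each group, and all 29972 genes of the deposited table, of which 13498 passed a filter on low values and were tested. H2030, a long-established line of human non-small cell lung cancer, stands alone behind every value. Per the labels' protocols, siMENA was a commercial siGENOME SMARTpool, control was an ON-TARGETplus pool, and both were given at 20 nmol/L with Lipofectamine RNAiMAX on the day after plating. The other 3 libraries came from H2030 cells given, at the same dose, a mix of 3 siRNAs that match exon 11a of ENAH (siMENA11a). They shared the estimate of the spread and served where a difference between the knockdowns was tested. siMENA and control came from different reagent lines, and the effects of the target and of the reagent line cannot be told apart. Whether libraries of a group stem from separate cultures is not stated in the labels. The p-values thus measure the spread between libraries alone, which may be technical.

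ENAH encodes hMENA, a member of the Ena/VASP family. These proteins sit at the growing ends of actin filaments, keep capping proteins away and speed filament growth in lamellipodia, filopodia and at cell adhesions. Tropomyosins coat the filaments, myosin II pulls on them, and integrins with their cytoplasmic partners tie them to the extracellular matrix. Transcription programmes read the state of this system, through SRF and its actin-sensing coactivators and through YAP, TAZ and the TEAD factors.

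Expression was measured by RNA sequencing of total RNA after removal of ribosomal RNA and was deposited as TPM (transcripts per 1000000), which scales each library to the same sum and keeps no sequencing depth. The depth is therefore unknown, and no counting error is given. Values below are TPM divided by a size factor per library (scaled TPM), always in the order of libraries 1, 2 and 3. Differences are log2 fold changes of scaled TPM + 0.5, given with standard errors. A gene was called at a limma p under 0.05 after Benjamini-Hochberg adjustment across the 13498 tested genes, which is the adjusted p below. The table gives 1 value per gene, so isoforms of ENAH cannot be told apart. In such bulk values, fewer cells of a kind and less RNA per cell cannot be told apart.

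The targeted gene fell in every siMENA library. ENAH stood at 43.6, 43.2 and 44.7 scaled TPM in control and at 6.89, 7.298 and 7.48 scaled TPM in siMENA. The siMENA libraries lay below every control library, with a log2 fold change of -2.52 ± 0.038 (adjusted p = 4.98e-10). The siMENA11a libraries held 46.7, 47.5 and 48.7 TPM, and siMENA minus siMENA11a was -2.64 ± 0.038 on the log2 scale (adjusted p = 2.17e-10). VASP, the founding member of the family, had values of 85.3, 85.01 and 85.4 TPM in control and 76.03, 75.8 and 76.9 TPM in siMENA, a log2 fold change of -0.16 ± 0.03 (adjusted p = 0.00174), but it was not called with any of the 3 other scalings and had a log2 fold change of 0.0019 after quantile normalisation. EVL, the remaining member, had values of 22.4, 24.3 and 21.9 TPM in control and 24.9, 25.6 and 24.6 TPM in siMENA (0.13 ± 0.048, adjusted p = 0.0474), and its call ended without any 1 of 5 libraries (control 1, control 3 and each siMENA library).

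Of the 13498 tested genes, 6674 (49.4%) were called, 3196 higher (23.7%) and 3478 lower (25.8%) in siMENA than in control. Across all tested genes, called or not, most differences were small, and the middle 50% lay between -0.199 and 0.198 on the log2 scale. At least 2-fold changes were called for 176 genes lower (1.3%) and 68 higher (0.504%). Averaged over the 6 libraries of both groups, the median level was 8.19 TPM for these falls, 3.11 TPM for the rises and 9.54 TPM for all tested genes. Genes at 50 TPM or more in that average made up 26 of the 176 falls (14.8%) and 2 of the 68 rises (2.94%), against 11.1% of all tested genes. For 7770 genes (57.6%) all siMENA values lay on the same side of all control values.

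The split of the small changes depended on the scaling, with 47.9% of calls higher here, 63.4% in TPM as deposited, 69.6% in TPM rescaled after small and structured RNAs were removed, and 53.7% after quantile normalisation. The median of all tested genes was 0.00756 here and moved to 0.0862, 0.128 and 0.0283. Counts for gene groups are therefore given below with their range over these 3 other scalings. The shares to set beside them are those of all tested genes, 49.4% called, 23.7% higher and 25.8% lower. Groups did not overlap for 57.6% of all tested genes. The 60 gene lists hold 1434 entries, of which 1233 passed the filter and were tested. RN7SL transcripts, the RNA of the signal recognition particle, took 39.73% to 41.13% of the TPM in control and 39.58% to 40.61% in siMENA. Across genes, log values of library pairs correlated at 0.978 to 0.981 within a group (6 pairs) and at 0.962 to 0.971 between groups (9 pairs), and no library stood apart. Small nucleolar RNAs were among the largest fold changes but were listed at 0 in several or all libraries of a group, and they are not described further.

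**Figure D1:**
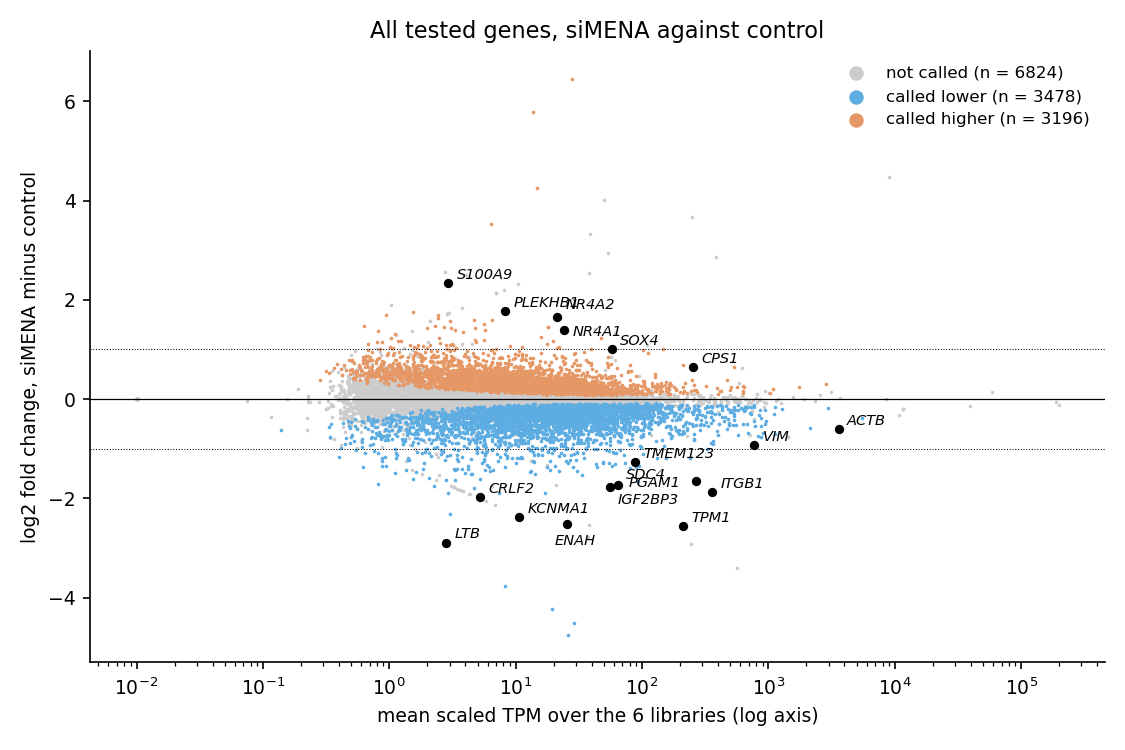
Mean scaled TPM over the 6 libraries (horizontal, log axis) against the log2 fold change of siMENA minus control (vertical) for all 13498 tested genes, coloured by call, with dotted lines at 2-fold. Abundant genes such as TPM1, ITGB1 and PGAM1 lie among the falls, whereas S100A9 and most other large rises lie at low levels.

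Among called genes at a mean of 1 TPM or more whose groups did not overlap, the 20 largest falls took in actin, adhesion and signalling genes. TPM1, a tropomyosin that stabilises actin filaments, had scaled values of 371, 361 and 355 TPM in control and 60.1, 59.8 and 63.9 TPM in siMENA (-2.56 ± 0.033, adjusted p = 2.31e-10). ITGB1, the beta 1 subunit shared by most integrins that bind matrix, had values of 569, 564 and 563 TPM in control and 133, 167 and 162 TPM in siMENA (-1.88 ± 0.073, adjusted p = 1.68e-07). Both were among the abundant genes of these cells, and for both the groups lay far apart. LTB, which encodes the cytokine lymphotoxin beta, had the largest fall of the named genes, from 5.75, 5.503 and 4.62 TPM to 0.767, 0.0746 and 0.147 TPM (-2.89 ± 0.3, adjusted p = 4.59e-05). Its siMENA 1 value was above those of siMENA 2 and siMENA 3, and all 3 lay below every control value.

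Membrane and signalling genes followed. KCNMA1, the pore of a large-conductance potassium channel, had values of 17.8, 18.4 and 18.1 TPM in control and 2.85, 3.02 and 3.36 TPM in siMENA (-2.38 ± 0.072). CRLF2, a receptor chain for the cytokine TSLP, had values of 8.62, 8.87 and 8.32 TPM in control and 1.92, 1.78 and 1.75 TPM in siMENA (-1.97 ± 0.063). OXTR, the oxytocin receptor, went from 3.74, 4.303 and 3.32 TPM to 0.729, 0.774 and 0.7805 TPM (-1.76 ± 0.095). The rule that named these 3 genes required that control and siMENA libraries did not overlap. The surface protein genes PSCA (-1.63), LY6K (-1.61) and VSTM1 (-1.63) and the carbonic anhydrase relative CA8 (-1.58) fell as well, from control levels under 6 TPM.

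Several falls were in genes of RNA handling and metabolism. IGF2BP3, an oncofetal RNA-binding protein that stabilises target messages, had values of 87.5, 88.4 and 82.6 TPM in control and 23.6, 24.9 and 26.1 TPM in siMENA (-1.77 ± 0.045, adjusted p = 3.3e-08). PGAM1, a phosphoglycerate mutase of glycolysis, had values of 402, 403 and 400.3 TPM in control and 119, 128.2 and 139 TPM in siMENA (-1.64 ± 0.053, adjusted p = 6.47e-08). In both genes the siMENA libraries lay close together and far below control. The RNA-binding protein gene RBM24 (-1.79), the vesicle-tethering gene TRAPPC1 (-1.67), TMEM65 (-1.60), which encodes a mitochondrial membrane protein, and the long noncoding RNA LINC00707 (-1.89) were also among the 20. MICAL2, which oxidises actin, went from 12.3, 13.6 and 9.88 TPM to 2.26, 3.09 and 3.23 TPM (-1.89 ± 0.14). COMMD3-BMI1 (-1.88 ± 0.6, adjusted p = 0.0271) names a read-through of adjoining genes, shares their sequence and is uncertain. It was no longer called when control 1, control 3 or siMENA 1 was left out (adjusted p = 0.0872, 0.0517 and 0.0648), and without siMENA 1 its log2 fold change was -1.16. The call also ended with no filter on low values (adjusted p = 0.0556) and with limma's robust variance estimate (adjusted p = 0.0772).

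Among genes with a mean of at least 50 TPM, 9 of the 15 largest falls were not among those 20. NONO, an RNA- and DNA-binding protein of paraspeckles, had values of 133, 138 and 138 TPM in control and 51.3, 54.5 and 53.4 TPM in siMENA (-1.35 ± 0.032, adjusted p = 2.01e-08). SMS, the spermine synthase, went from 133, 126 and 130.1 TPM to 49.1, 52.4 and 49.02 TPM (-1.36 ± 0.038). The siMENA libraries of both genes lay close together, and the rule that named both genes required no overlap with control. The small GTPase gene ARF4 (-1.38), the hyaluronan receptor CD44 (-1.34), the receptor tyrosine kinase AXL (-1.30), the G protein subunit GNG12 (-1.28), the RNA-binding gene BICC1 (-1.28), the membrane protein gene TMEM123 (-1.27) and the matrix protein gene TGFBI (-1.19) made up the rest.

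**Figure D2:**
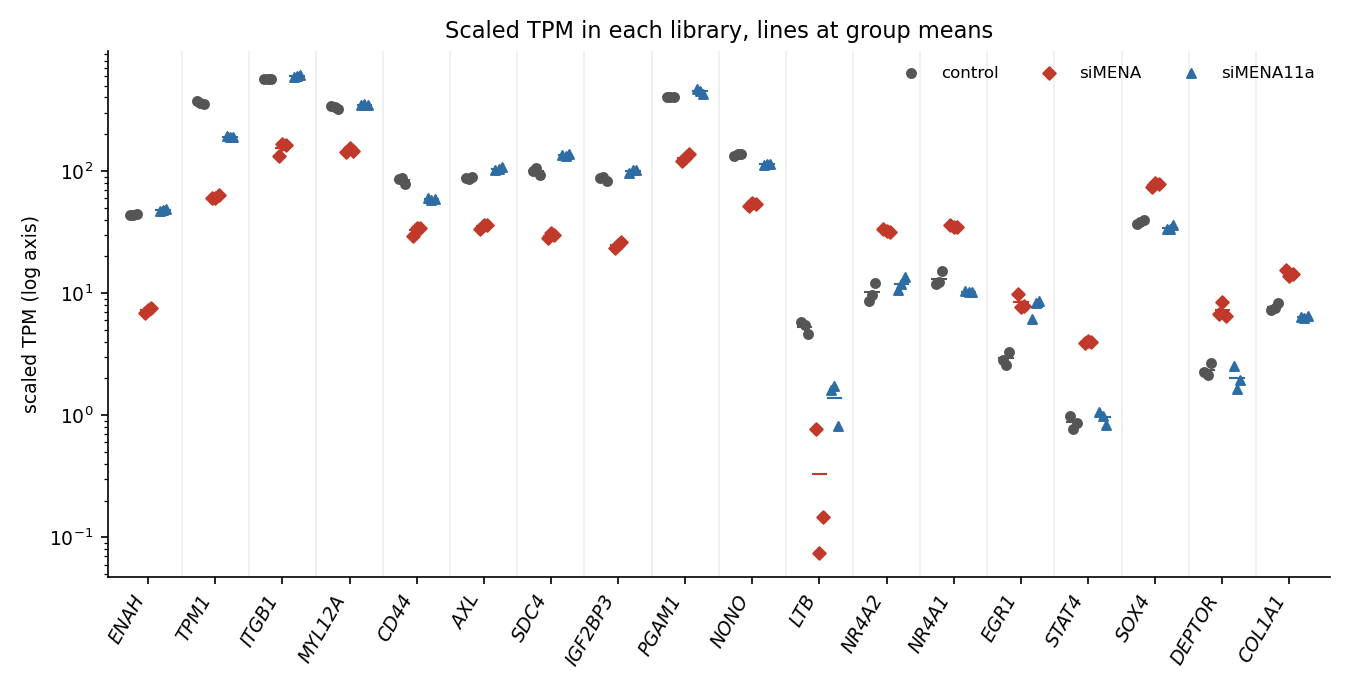
Scaled TPM (log axis) of 18 genes in each of the 9 libraries, with a short line at each group mean; circles are control, diamonds siMENA and triangles siMENA11a. ENAH, TPM1, ITGB1, SDC4, IGF2BP3, PGAM1 and NONO lie lower in siMENA than in both other groups, and NR4A1, NR4A2, STAT4, SOX4 and DEPTOR lie higher.

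Short sequence words shared by the 3′ UTRs of falling genes are shown because an siRNA can also act on messages that match its seed, the first bases of its guide strand. All 16384 words of 7 bases were looked up on the sense strand of the longest annotated 3′ UTR of 11311 tested genes (83.8%; GENCODE 29, GRCh38). The 14028 words with at least 200 carriers were ranked by the mean fold change of carriers minus that of other genes. The 2 lowest, used below, were CAGCGTA (204 genes, mean -0.279, against -0.012 for other genes) and CAGAATA (1729 genes, -0.135 against 0.004). Rank 3 was ACGTACT (222 genes, -0.15 against -0.015), with a lower carrier mean than CAGAATA. The 3 protein-coding ENAH transcripts of the GENCODE basic set were searched over their whole sequence, not the 3′ UTR alone. CAGAATA occurs in 3 of 3, CAGCGTA in 1 of 3 and ACGTACT in 0 of 3. Of the 14028 words, 53.2% occur in at least 1 of these ENAH transcripts and 13.9% in all 3, so such a match is common. No siRNA sequence was used here, so no word was matched to a duplex. The windows below are sense-strand 3′ UTR sequence, 5′ to 3′, with the word in capitals. They come from ENAH on the minus strand at chr1:225495038-225495060 and chr1:225493734-225493756, and from 6 of the largest falls, IGF2BP3 (minus strand, chr7:23311936-23311958), PGAM1 (plus, chr10:97432711-97432733), TRAPPC1 (minus, chr17:7930358-7930380), ARF4 (minus, chr3:57572087-57572109), KCNMA1 (minus, chr10:76876087-76876109) and NONO (plus, chrX:71300754-71300776).
ENAH: aatctcttCAGAATAgtcatcat
ENAH: attataagCAGCGTAaaagtaac
IGF2BP3: aattggatCAGAATAattatcac
PGAM1: aatctagtCAGAATAgcagttct
TRAPPC1: gagaagcaCAGAATAaacttttt
ARF4: ggtttgggCAGAATAttaaactt
KCNMA1: ccaattacCAGCGTAggcaaaat
NONO: gtcacaggCAGCGTAcatacggt

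Either word was held by 68 of the 141 searched 2-fold falls (48.2%), 6 of the 52 searched 2-fold rises (11.5%), 777 of 5296 genes not called (14.7%) and 1875 of all 11311 genes searched (16.6%). The words were picked on these same fold changes, and the number kept was set after the ranking was seen, so these shares are a description and partly built in. Longer 3′ UTRs hold more words, and the median length was 1750 bases for the 2-fold falls, 890 for the 2-fold rises and 1358 for all genes searched. Of the 20 largest falls, 18 had a searched 3′ UTR and 9 carried a word. TPM1, ITGB1, SDC4 and LTB carried neither, whereas MYL12A, CAP2, RAPH1, ITGAV and PTK2, described below, carried at least 1. Of all searched genes called lower, 24.7% held either word. Among list members called lower, it was 1 of 13 tropomyosin and contractile genes, 2 of 10 integrin subunits and 4 of 13 focal adhesion genes. A match is not a measured binding site, and its part in any fall was not tested.

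**Figure D3:**
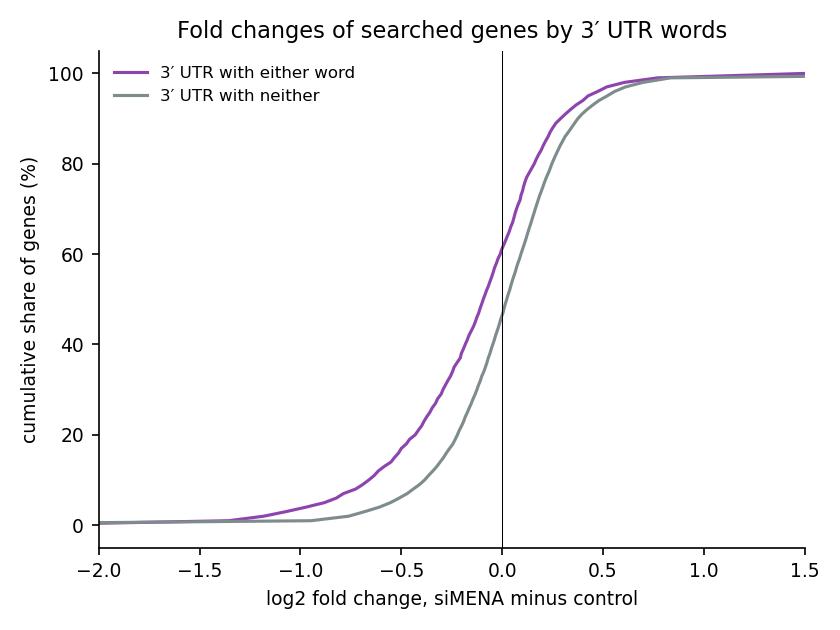
Cumulative share of searched genes (vertical) by log2 fold change of siMENA minus control (horizontal), for 1875 genes with either 3′ UTR word and for the other searched genes. The curve of the carriers lies to the left, with a median of -0.094 against 0.023.

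Most actin filament genes fell. Of 19 tested tropomyosin and contractile genes, 13 fell, 3 rose and 3 were not called (84.2% called, against 49.4% of all tested genes; 11 to 13 lower and 4 to 6 higher under the other scalings), with a median of -0.28. Only 1 of the 3 rises was called without control 2, control 3 or siMENA 1. MYL12A, a regulatory light chain of nonmuscle myosin II, had values of 339, 335 and 324 TPM in control and 142, 154 and 145 TPM in siMENA (-1.18 ± 0.036, adjusted p = 4.71e-08). The heavy chain gene MYH9 (-0.54), the actin crosslinkers ACTN1 (-0.51) and TAGLN2 (-0.75), calponin CNN3 (-0.56) and the tropomyosins TPM4 (-0.47) and TPM3 (-0.37) fell too. ACTG2, a smooth muscle actin of low level here, went the other way, with values of 0.342, 0.682 and 0.281 TPM in control and 2.09, 1.56 and 1.75 TPM in siMENA (1.32 ± 0.19). Tropomyosins and actins share sequence between paralogs, and how the authors divided such reads is not known here.

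The cytoplasmic actins fell. ACTB, cytoplasmic beta actin, had values of 4245, 4457 and 4383 TPM in control and 2816, 2855 and 2922 TPM in siMENA (-0.61 ± 0.045), and ACTG1, cytoplasmic gamma actin, values of 2517, 2629 and 2471 TPM in control and 1688, 1682 and 1728 TPM in siMENA (-0.58 ± 0.043). Both sets of siMENA libraries lay below all control libraries. Of 8 tested genes of actins and monomer-binding proteins, 6 fell and none rose (6 lower and 0 to 1 higher under each other scaling, median -0.48), with the largest fall in CAP2, which recycles cofilin-bound actin, from 28.2, 26.98 and 27.6 TPM to 9.88, 9.58 and 10.4 TPM (-1.43 ± 0.039).

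Among 11 tested binding partners of Ena/VASP proteins, 6 fell, 2 rose and 3 were not called (3 to 4 lower and 3 to 4 higher under the other scalings). RAPH1, lamellipodin, which brings Ena/VASP proteins to the leading edge, had values of 15.99, 15.4 and 15.1 TPM in control and 7.04, 6.24 and 6.703 TPM in siMENA (-1.16 ± 0.049, adjusted p = 2.45e-07). LPP, a LIM protein of adhesions, fell by 0.47 ± 0.051 and PALLD, a crosslinker of actin bundles, rose by 0.44 ± 0.043 on the log2 scale. Of 16 tested capping proteins and formins, 11 fell and 1 rose (5 to 7 lower and 2 higher under the other scalings), with CAPZA1, a subunit of the capping protein that competes with Ena/VASP at filament ends, at -0.69 ± 0.041. Counts for the 17 tested Arp2/3 and nucleation genes (7 lower, 4 higher) turned to 5 lower and 5 to 6 higher under the other scalings, and only 2 were higher without control 2 or siMENA 2.

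Most integrin subunit genes fell with ITGB1. Of 14 tested integrin subunits, 10 fell, 1 rose and 3 were not called (8 to 10 lower and 1 to 2 higher under the other scalings), with a median of -0.42. The share called was 78.6%, against 49.4% of all tested genes. ITGB3 had values of 9.61, 9.67 and 10.3 TPM in control and 2.87, 3.41 and 3.802 TPM in siMENA (-1.43 ± 0.09), and ITGAV, its alpha partner in a vitronectin receptor, values of 50.4, 49.5 and 44.5 TPM in control and 21.96, 25.9 and 24.8 TPM in siMENA (-0.98 ± 0.065). ITGA5, the alpha subunit of the fibronectin receptor, went from 54.9, 55.5 and 45.4 TPM to 36.5, 36.4 and 35.6 TPM (-0.51 ± 0.071). None of these 3 genes overlapped between groups, as for 57.6% of all tested genes. The collagen receptor subunit ITGA2 was the 1 integrin that rose, from 19.4, 19.1 and 16.3 TPM to 25.96, 25.5 and 25.1 TPM (0.48 ± 0.062).

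SDC4, the syndecan that signals with integrins at focal adhesions, had values of 99.5, 106 and 92.4 TPM in control and 28.1, 30.9 and 29.7 TPM in siMENA (-1.73 ± 0.053, adjusted p = 4.71e-08). Of 18 tested focal adhesion genes, 13 fell, 4 rose and 1 was not called (10 to 11 lower and 5 higher under the other scalings). PTK2, the focal adhesion kinase, had values of 35.5, 33.98 and 32.5 TPM in control and 16.8, 16.99 and 17.2 TPM in siMENA (-0.98 ± 0.039), and PARVA, an adaptor that links integrin-linked kinase to actin, went from 7.28, 7.16 and 6.11 TPM to 3.32, 3.46 and 2.801 TPM (-0.99 ± 0.086). The kinase gene ILK (-0.34) and talin TLN1 (-0.30) fell by less. FERMT1, a kindlin that activates integrins, rose from 6.22, 6.09 and 5.02 TPM to 8.505, 9.42 and 9.16 TPM (0.61 ± 0.078).

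Genes of YAP, the TEAD factors and their targets fell more often than they rose, with 13 of 20 tested lower, 4 higher and 3 not called (12 to 13 lower and 4 to 6 higher under the other scalings, median -0.33). AXL had values of 88.2, 85.9 and 88.7 TPM in control and 33.4, 35.99 and 36.3 TPM in siMENA (-1.30 ± 0.037, adjusted p = 3.72e-08). CYR61, a matricellular protein, went from 324, 332 and 324 TPM to 191, 185 and 188 TPM (-0.80 ± 0.027, adjusted p = 8.3e-08). The related matricellular gene CTGF rose, with values of 179.9, 199.9 and 203 TPM in control and 231, 233 and 223 TPM in siMENA (0.24 ± 0.056, adjusted p = 0.00646). ANKRD1 (-0.33), CRIM1 (-0.95) and FSTL1 (-0.99) fell, and YAP1 itself was not called (-0.07, adjusted p = 0.0711). Targets of SRF were split, with 9 of 21 higher and 9 lower (10 to 11 higher and 7 to 8 lower under the other scalings, and 5 higher without control 2).

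**Figure D4:**
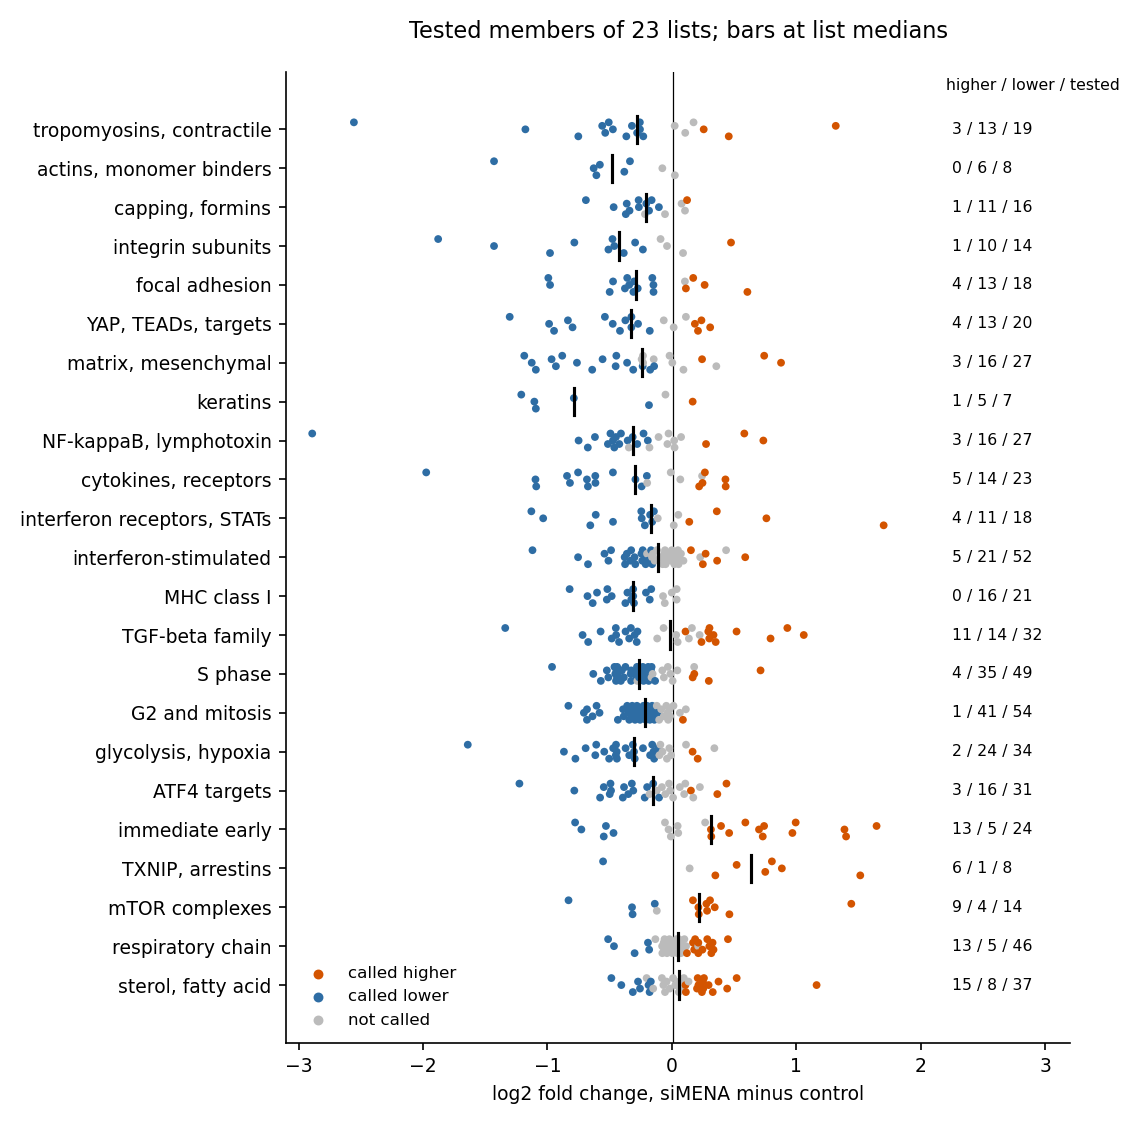
Log2 fold change of siMENA minus control for the tested members of 23 gene lists, 1 point per gene, with a bar at each list's median and a line at the median of all tested genes. The numbers at the right give members called higher, called lower and tested; most bars of actin, adhesion, matrix and cell cycle lists lie left of the line, those of immediate early and arrestin genes to its right.

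Matrix and mesenchymal genes fell in 16 of 27 tested cases, rose in 3 and were not called in 8 (13 to 14 lower and 3 to 4 higher under the other scalings). VIM, the intermediate filament vimentin, had values of 1018, 1030.2 and 996 TPM in control and 489.6, 550.0 and 558 TPM in siMENA (-0.93 ± 0.049, adjusted p = 7.96e-07). THBS1, thrombospondin 1, had values of 464, 475 and 422 TPM in control and 240.0, 244 and 253 TPM in siMENA (-0.88 ± 0.052), and LOXL2, a collagen-crosslinking oxidase, values of 83.6, 85.7 and 85.6 TPM in control and 37.5, 40.3 and 40.9 TPM in siMENA (-1.09 ± 0.037). All 3 lay lower in every siMENA library. COL1A1, a fibrillar collagen chain, rose from 7.34, 7.501 and 8.32 TPM to 15.6, 13.9 and 14.3 TPM (0.88 ± 0.06), as did the mesenchymal cadherin CDH11 (0.74 ± 0.12), while fibronectin FN1 was not called (-0.15, adjusted p = 0.24).

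Epithelial genes did not move one way, with 9 of 26 tested higher and 7 lower (8 to 11 higher and 5 to 6 lower under the other scalings, and 5 higher without control 1). EPCAM, an epithelial adhesion molecule, rose from 1.59, 1.59 and 1.19 TPM to 3.07, 3.38 and 2.84 TPM (0.88 ± 0.12), and CRB3, an apical polarity protein, from 1.26, 0.615 and 0.711 TPM to 3.65, 3.300 and 2.43 TPM (1.43 ± 0.19). Keratins fell in 5 of 7 tested cases and rose in 1 (4 to 5 lower and 1 higher under the other scalings), led by the hair-type keratin KRT81 (-1.21 ± 0.14), KRT7 (-1.10 ± 0.088) and KRT80 (-1.09 ± 0.046). KRT80 had values of 84.5, 83.4 and 76.95 TPM in control and 38.8, 36.7 and 38.4 TPM in siMENA, with no overlap between groups. KRT8 was not called (-0.05, adjusted p = 0.24). CDH1, epithelial cadherin, and KRT19 stayed at or under 0.129 TPM in all 6 libraries, so these defining epithelial markers are near 0 in this line.

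NF-kappaB and lymphotoxin genes fell in 16 of 27 tested cases, rose in 3 and were not called in 8 (12 to 16 lower and 3 to 6 higher under the other scalings, median -0.31). Feedback inhibitors were among them, with TNFAIP3, which edits ubiquitin chains, going from 4.66, 4.97 and 4.17 TPM to 2.58, 2.58 and 2.91 TPM (-0.68 ± 0.093) and NFKBIA from 55.7, 60.2 and 54.9 TPM to 41.7, 38.7 and 40.4 TPM (-0.49 ± 0.05). SOD2, a mitochondrial superoxide dismutase induced by NF-kappaB, went from 61.3, 61.5 and 62.8 TPM to 35.2, 34.8 and 39.99 TPM (-0.75 ± 0.049). The subunit NFKB2 (-0.45) and the kinase MAP3K14 (-0.42) of the noncanonical branch fell as well. The atypical inhibitors NFKBIZ (0.74) and BCL3 (0.58) rose.

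Cytokine and receptor genes fell in 14 of 23 tested cases and rose in 5 (12 to 13 lower and 5 to 6 higher under the other scalings, and 2 higher without control 3 or siMENA 1). Receptor chains led beside CRLF2, with IL20RB at 21.04, 20.2 and 20.8 TPM in control and 8.599, 10.5 and 9.23 TPM in siMENA (-1.10 ± 0.067) and IL6ST, the shared signal transducer gp130, at 47.6, 47.2 and 42.4 TPM in control and 23.6, 27.4 and 26.2 TPM in siMENA (-0.82 ± 0.06). The chemokine genes CXCL2 (-0.68) and IL8 (-0.67) and the angiogenic factor VEGFA (-0.62) fell, and the lymphangiogenic factor VEGFC rose (0.43). Of 18 tested interferon receptor, JAK and STAT genes, 11 fell and 4 rose (6 to 9 lower and 4 to 5 higher under the other scalings). The interferon receptor genes IFNGR1, with values of 19.6, 21.5 and 21.7 TPM in control and 9.01, 10.05 and 8.84 TPM in siMENA (-1.13 ± 0.057), IFNAR1 (-0.61 ± 0.054) and IFNAR2 (-0.66 ± 0.06) fell. STAT4, a transcription factor of cytokine signalling, rose from 0.985, 0.778 and 0.871 TPM to 3.89, 4.04 and 4.004 TPM (1.70 ± 0.098, adjusted p = 1.35e-06).

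Interferon-stimulated genes were called about as often as all tested genes, and their split depended on the scaling. Of 52 tested, 21 fell, 5 rose and 26 were not called (26 of 52 called, where 49.4% of all tested genes were), with a median of -0.11. The split was 10 lower and 7 higher in TPM as deposited, 10 lower and 12 higher in rescaled TPM, and 17 lower and 7 higher after quantile normalisation. Without siMENA 2 or siMENA 3, 3 rose. IFI6, an interferon-induced mitochondrial protein, had values of 35.9, 36.5 and 41.7 TPM in control and 16.7, 17.7 and 17.2 TPM in siMENA (-1.12 ± 0.07, adjusted p = 2.09e-06), and OAS3, a sensor of double-stranded RNA, values of 37.3, 38.9 and 36.5 TPM in control and 25.1, 25.4 and 26.5 TPM in siMENA (-0.54 ± 0.038). Of 23 tested genes of cytosolic nucleic acid sensing, 8 fell and 6 rose (6 to 8 lower and 6 to 10 higher under the other scalings, and 3 higher without control 3). DDX58 (-0.51 ± 0.06), which encodes the RNA sensor RIG-I, and its adaptor MAVS (-0.82 ± 0.054) were among the falls. Class I antigen presentation genes fell in 16 of 21 tested cases with none higher (11 to 13 lower and 0 to 1 higher under the other scalings). B2M, the light chain of class I molecules, had values of 619, 609 and 614 TPM in control and 434, 423 and 429 TPM in siMENA (-0.52 ± 0.044), and the peptide transporter TAP1 went from 60.5, 59.5 and 49.8 TPM to 35.2, 37.9 and 37.9 TPM (-0.60 ± 0.067). CD274, which encodes PD-L1, was not called (-0.26, adjusted p = 0.0804).

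TGF-beta family genes were split, with 14 of 32 tested lower and 11 higher (14 lower and 12 to 14 higher under the other scalings). TGFB2 had values of 29.1, 30.9 and 28.9 TPM in control and 11.1, 11.3 and 11.8 TPM in siMENA (-1.34 ± 0.04, adjusted p = 4.49e-08), while TGFB3 rose by 0.79 ± 0.066 on the log2 scale. The activin subunits INHBB (-0.72) and INHBA (-0.67), the receptor TGFBR2 (-0.48) and the signal transducer SMAD3 (-0.45) fell. The distant family member GDF15, a stress-induced cytokine, rose from 14.9, 13.2 and 14.6 TPM to 29.5, 30.99 and 30.1 TPM (1.06 ± 0.068), and BMP4 rose by 0.93 ± 0.14.

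Immediate early genes rose more often than they fell. Of 24 tested, 13 rose, 5 fell and 6 were not called (13 to 14 higher and 5 lower under the other scalings), with a median of 0.32. The orphan nuclear receptor genes NR4A2 and NR4A1 had values of 8.56, 9.700 and 12.1 TPM in control and 33.7, 32.2 and 31.4 TPM in siMENA (1.65 ± 0.12, adjusted p = 4.32e-06) and of 11.9, 12.2 and 15.2 TPM in control and 36.1, 34.5 and 34.99 TPM in siMENA (1.40 ± 0.077, adjusted p = 1.04e-06). EGR1, a zinc finger factor, went from 2.84, 2.603 and 3.32 TPM to 9.75, 7.72 and 7.91 TPM (1.39 ± 0.14). These 3 genes were among the 20 largest rises, for which the rule required no overlap between groups. NR4A3 (0.97), the phosphatase DUSP6 (0.99), FOS (0.74), JUND (0.73) and MYC (0.46) rose too. FOSL1, an AP-1 subunit, fell from 50.4, 48.97 and 39.9 TPM to 26.99, 26.5 and 26.6 TPM (-0.78 ± 0.077), and JUN was not called (-0.03, adjusted p = 0.694).

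Other large rises followed. S100A9, a calcium-binding inflammatory protein, had values of 0.593, 0.163 and 1.31 TPM in control and 4.35, 7.12 and 4.03 TPM in siMENA (2.33 ± 0.36, adjusted p = 0.000573), with wide spread in both groups. The rule that named it required no overlap. PLEKHB1 had values of 3.17, 3.17 and 4.097 TPM in control and 13.95, 12.5 and 12.6 TPM in siMENA (1.77 ± 0.12), and DHRS2, a short-chain dehydrogenase, rose by 1.63 ± 0.12 on the log2 scale. SMPDL3B (1.76), the elastase inhibitor PI3 (1.60), MSMP (1.57), the metalloproteinase MMP11 (1.46), the membrane protein gene KRTCAP3 (1.42), the T-box factor EOMES (1.39), SLAIN1 (1.36), E2F5 (1.26) and the calcium channel subunit CACNB2 (1.24) were also among the 20 largest. Of genes with a mean of at least 50 TPM, the transcription factor SOX4 rose most, with values of 36.5, 37.9 and 39.8 TPM in control and 74.2, 79.03 and 77.7 TPM in siMENA (1.01 ± 0.043). MIDN (0.86), IRF2BPL (0.69), the protease inhibitor TFPI2 (0.68), the coregulator CITED2 (0.68), the urea cycle enzyme CPS1 (0.65) and the aryl hydrocarbon receptor AHR (0.57) rose as well, and CPS1 had values of 187, 185 and 221 TPM in control and 306, 314 and 311 TPM in siMENA.

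Metabolic regulators changed in both directions. Of 8 tested genes of TXNIP, its arrestin relatives and their glucose-sensing factors, 6 rose and 1 fell (6 to 7 higher and 1 lower under the other scalings), with ARRDC4 at 2.96, 2.95 and 2.13 TPM in control and 8.44, 9.09 and 8.03 TPM in siMENA (1.51 ± 0.12) and TXNIP at 1.96, 1.94 and 1.59 TPM in control and 3.75, 3.700 and 3.92 TPM in siMENA (0.88 ± 0.1). Of 14 tested genes of the mTOR complexes and their regulators, 9 rose and 4 fell (9 higher and 3 lower under each other scaling). MTOR itself fell from 23.3, 23.7 and 23.02 TPM to 12.6, 12.5 and 13.7 TPM (-0.83 ± 0.042), and its inhibitor DEPTOR rose from 2.24, 2.12 and 2.68 TPM to 6.79, 8.501 and 6.501 TPM (1.44 ± 0.14). Glycolysis and hypoxia genes fell in 24 of 34 tested cases and rose in 2 (18 to 20 lower and 4 higher under the other scalings), with the glucose transporter SLC2A1 at 52.9, 53.3 and 51.8 TPM in control and 28.1, 27.98 and 29.8 TPM in siMENA (-0.87 ± 0.033) and the abundant enzymes ENO1 (-0.54), PKM (-0.44) and LDHA (-0.44) lower. ATF4 target genes fell in 16 of 31 tested cases and rose in 3 (11 to 13 lower and 5 to 9 higher under the other scalings), with ATF4 itself at 134, 132 and 141 TPM in control and 88.3, 93.6 and 90.5 TPM in siMENA (-0.58 ± 0.041) and STC2 at -1.23 ± 0.075.

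Cell cycle genes shifted down by small amounts. Of 49 tested S phase genes, 35 fell and 4 rose (25 to 33 lower and 3 to 5 higher under the other scalings, median -0.26), with 1 to 2 rises without control 2, siMENA 1 or siMENA 2. TYMS, thymidylate synthase, had values of 125, 137 and 129 TPM in control and 61.9, 69.1 and 69.3 TPM in siMENA (-0.96 ± 0.051, adjusted p = 8.17e-07), the replication genes CDC6 (-0.51) and RRM2 (-0.57) fell, and cyclin E gene CCNE1 rose by 0.71 ± 0.082 on the log2 scale. Of 54 tested G2 and mitosis genes, 41 fell and 1 rose (24 to 28 lower and 3 to 6 higher under the other scalings, median -0.21). ANLN, which scaffolds actin and myosin in the cytokinetic ring, had values of 101.0, 97.7 and 92.4 TPM in control and 53.9, 54.96 and 53.98 TPM in siMENA (-0.83 ± 0.035), and the proliferation marker MKI67 went from 80.8, 79.1 and 77.3 TPM to 60.7, 62.3 and 63.7 TPM (-0.34 ± 0.032). Of 22 tested replication-dependent histone genes, whose near-identical copies can share reads and are uncertain, 19 fell and 1 rose (18 to 19 lower and 1 higher under the other scalings).

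RNA-binding and RNA interference genes held opposite movements of related genes. NONO fell, whereas its paraspeckle partner PSPC1 rose from 16.7, 16.9 and 15.7 TPM to 30.1, 30.1 and 31.4 TPM (0.88 ± 0.044), and NEAT1, the RNA that builds paraspeckles, rose by 0.48 ± 0.072 on the log2 scale. IGF2BP1, a relative of IGF2BP3, rose from 2.895, 3.02 and 2.64 TPM to 4.79, 4.38 and 4.26 TPM (0.57 ± 0.07). Of the GW182 scaffolds of small RNA silencing, TNRC6A fell by 0.67 ± 0.071 and TNRC6B rose by 0.83 ± 0.054, and the effector AGO2 rose by 0.49 ± 0.053 on the log2 scale. The 45 tested cytosolic ribosomal protein genes turned from 13 lower and 7 higher to 5 to 6 lower and 15 to 24 higher under the other scalings, and they share reads with pseudogenes. Of them, 44.4% were called here, against 49.4% of all tested genes.

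Most of the largest siMENA changes differed from siMENA11a when the difference itself was tested (58.7% of all tested genes were called in that contrast). Of the 20 largest falls, 19 were lower in siMENA than in siMENA11a and 1, COMMD3-BMI1, was not called (29.5% of all tested genes were lower). Of the 20 largest rises, 15 were higher than in siMENA11a (29.2% of all tested genes were), 4 were not called and PI3 was lower (-0.74 ± 0.16). These genes were picked for their siMENA values, which enter both comparisons, so the counts are partly built in. For ITGB1 the siMENA11a libraries held 585, 593 and 614 TPM, and siMENA minus siMENA11a was -1.96 ± 0.073 (adjusted p = 5.08e-08). For TPM1 they held 192, 191 and 189.6 TPM, below control, and siMENA was lower still (-1.63 ± 0.033). NR4A1 stood at 10.4, 10.1 and 10.3 TPM in siMENA11a and was higher in siMENA, with a difference of 1.73 ± 0.077.

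For some of these genes the knockdowns were not called different. EGR1 stood at 6.14, 8.31 and 8.61 TPM in siMENA11a, and siMENA minus siMENA11a was 0.14 ± 0.14 (adjusted p = 0.417). ARRDC4 stood at 8.56, 8.62 and 10.4 TPM (-0.10 ± 0.12, adjusted p = 0.484), SMPDL3B at 2.57, 2.35 and 2.65 TPM (0.05 ± 0.14, adjusted p = 0.79), CRB3 at 3.61, 3.13 and 2.62 TPM (-0.0043 ± 0.19, adjusted p = 0.989) and TMEM123 at 49.04, 46.99 and 45.9 TPM (0.13 ± 0.066, adjusted p = 0.125). A p that misses the threshold does not show that these levels are equal. Interferon-stimulated genes were lower in siMENA than in siMENA11a in 47 of 52 tested cases and higher in 1 (29.5% and 29.2% of all tested genes). Against control, 21 of these 52 were lower in siMENA. IFI6 stood at 586, 689 and 667 TPM in siMENA11a, far above its control values. G2 and mitosis genes were higher in siMENA than in siMENA11a in 43 of 54 cases and lower in 4, although 41 of the 54 were lower in siMENA than in control.

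**Figure D5:**
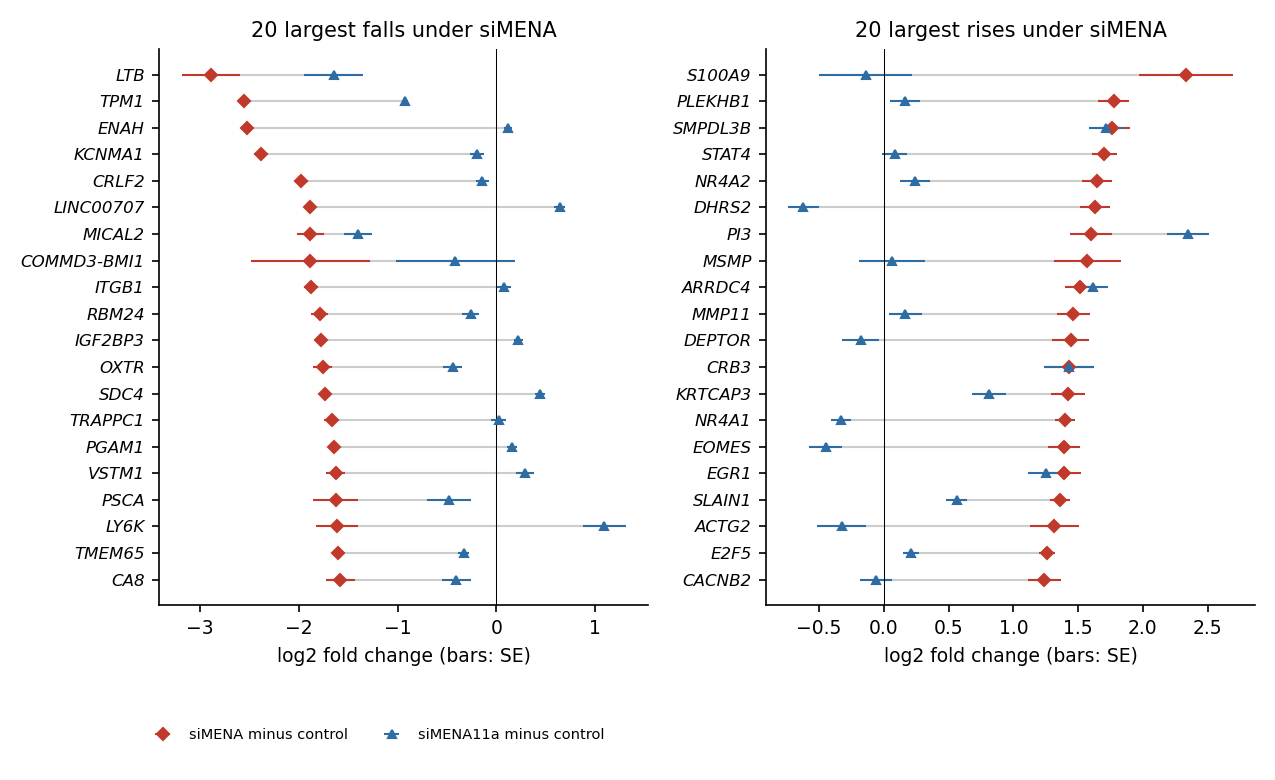
Log2 fold changes against the shared control of the 20 largest falls (left) and 20 largest rises (right) under siMENA, as diamonds, beside the same genes under siMENA11a, as triangles, with standard errors as bars. For ITGB1, SDC4 and IGF2BP3 the triangles lie at or above 0, while for EGR1, ARRDC4, SMPDL3B and CRB3 both symbols lie close together.

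Most markers of other cell types were near 0. Of 7 leukocyte markers, CD3E and HBA1 were among those listed at 0 in all 9 libraries and 5 stayed under 0.5 TPM. Their sum was 97.36 to 105.0 TPM in control and 41.06 to 49.49 TPM in siMENA, and nearly all of it was CD68, a lysosomal membrane protein that fell from 96.1, 104 and 96.99 TPM to 40.3, 45.9 and 48.7 TPM (-1.13 ± 0.063). The sum of 7 fibroblast markers was 8.886 to 9.435 TPM in control and 15.41 to 17.26 TPM in siMENA, mostly COL1A1, with 4 markers under 0.5 TPM. The sum of 5 endothelial markers was 0.5127 to 0.6723 TPM and 0.9734 to 1.222 TPM, with 4 markers under 0.5 TPM. Of 10 markers of lung epithelial lineages, SFTPC and SCGB1A1 were listed at 0 and 9 stayed under 0.5 TPM. The sum of 6 epithelial markers, mostly KRT18 and KRT8, was 355.8 to 368.0 TPM in control and 311.9 to 331.3 TPM in siMENA. The part of these sums in the results was not tested.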

How the data were processed

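Total RNA of H2030 cells was depleted of ribosomal RNA and sequenced, per the labels' protocols. The authors deposited TPM per gene and library, rounded to 2 decimals. The tool kallisto and the build GRCh37 stand without a role or version in the submitters' processing notes. The deposited values are labelled with the name of another tool, RSEM. Which tool gave the TPM values is not settled in the sources used. Depth is unknown from TPM, and precision rests on 3 libraries a group.

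Each library was scaled by its size factor (the median of its ratios, taken over 12341 genes at a mean TPM of 1 or more and above 0 throughout). Genes with a mean of at least 0.5 scaled TPM went into 1 limma fit (version 3.58.1, R 4.3.3) of log2(scaled TPM + 0.5) over 9 libraries and 3 groups, with eBayes and trend, two-sided. The fit was checked on simulated data. This scale understates changes of low genes. Genes were named as the 20 largest called changes a direction, at a mean of at least 1 TPM and with no overlap. Symbols of clones, pseudogenes, small RNAs and histones were left out. The same at 50 TPM or more gave the 15 largest. Each list added up to 8 called members with the lowest adjusted p. Every member was added for the Ena/VASP lists and some others, among them tropomyosin, integrin, YAP, immediate early, NF-kappaB and mTOR genes. FERMT1, CDH11, FN1, KRT8, CD274, INHBA, BMP4, LDHA and CCNE1 fall outside this rule and were chosen after their values were seen, and some genes the rule names are not printed. Cell type markers such as CD68, CDH1 and KRT19 are named apart from the rule. Members, lists and rule were chosen with earlier results of these data known. Alternatives covered scaling, pseudocount, filter, libraries in the fit, a replicate block, robust eBayes and each library left out.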

Additional observations from a re-analysis of the deposited data

How the results depend on the processing

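Across the 16 alternatives, 6674 calls ranged from 5319 (filter at a mean of 5 TPM) to 7586, and ENAH stayed called. TPM as deposited gave 2300 genes lower and 3979 higher. TPM rescaled without small and structured RNAs gave 2307 lower, 5279 higher and 223 higher by 2-fold. Rises of 2-fold, 68 here, were 149 with a pseudocount of 0.1, 39 with a pseudocount of 1 and 28 with a filter at 5 TPM. Quantile normalisation turned VASP to 0.0019 and KRT18 to 0.032. The cause was not tested. Of 167 other called genes named, 163 kept direction and call under every alternative that tested them. The exceptions were VASP, KRT18, EVL and COMMD3-BMI1. Of genes named as not called, FN1 was called without siMENA 3, CD274 after quantile normalisation and YAP1 with no filter.

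Leaving out 1 library gave 5876 to 6188 calls, 2712 to 2922 higher, 3091 to 3266 lower, 66 to 80 higher by 2-fold, 166 to 191 lower by 2-fold, ENAH at -2.545 to -2.491, and 146 to 148 named genes called against siMENA11a (148 with all libraries). Lone rises among capping, G2 and mitosis, histone and keratin genes were lost without some libraries, and 1 of 2 glycolysis rises.

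With the replicate number as a block, 6386 genes were called (3026 higher, 3360 lower), and of the named genes EVL lost its call (adjusted p = 0.0665). Deviations of same-numbered control and siMENA libraries correlated at -0.0651, -0.042 and 0.0367, and those of libraries with unlike numbers at -0.0639 to 0.102. With 3 libraries a group, these values cannot show whether same-numbered libraries were handled together. The unknown depth leaves the counting error of low genes unmeasured.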

Other observations

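Genes of further lists moved as well. PLAU, the urokinase that activates plasminogen at the cell surface, had values of 13.5, 16.3 and 13.5 TPM in control and 5.41, 5.36 and 5.96 TPM in siMENA (-1.29 ± 0.12, adjusted p = 2.47e-05), and of 15 tested urokinase system and metalloproteinase genes 6 fell and 5 rose (4 to 5 lower and 4 to 6 higher under the other scalings). MMP14, a membrane-bound metalloproteinase, rose by 0.47 ± 0.049 on the log2 scale. SLPI, a secreted leukocyte protease inhibitor, rose from 9.75, 12.02 and 11.2 TPM to 25.8, 24.6 and 22.8 TPM (1.12 ± 0.083), with no overlap between groups. Of 17 tested receptor tyrosine kinases, 8 fell and 4 rose (5 to 7 lower and 4 to 5 higher under the other scalings), with EGFR at 40.5, 44.5 and 39.8 TPM in control and 29.5, 27.1 and 27.2 TPM in siMENA (-0.57 ± 0.049), IGF1R at -0.66 ± 0.034 and, in the other direction, ERBB2 at 0.48 ± 0.049. Among 16 tested immune checkpoint and NKG2D ligands, 5 fell and 2 rose (43.8% called, against 49.4% of all tested genes, and 3 to 4 lower and 2 higher under the other scalings). Without control 1 or siMENA 2, 1 was higher. CD47, which signals to phagocytes, had values of 6.52, 6.38 and 5.96 TPM in control and 3.41, 3.63 and 3.85 TPM in siMENA (-0.72 ± 0.06), and CD276, which encodes B7-H3, rose by 0.49 ± 0.039.

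Genes of the endoplasmic reticulum and the unfolded protein response fell in 18 of 32 tested cases and rose in 7 (14 to 17 lower and 8 to 10 higher under the other scalings). The chaperone CANX, which holds glycoproteins during folding, had values of 185, 183 and 180.4 TPM in control and 95.8, 106 and 108 TPM in siMENA (-0.82 ± 0.046), and the stress sensor ERN1 rose by 0.74 ± 0.084 on the log2 scale. In the lysosome list, 14 of 36 fell and 11 rose (12 to 13 lower and 15 to 16 higher under the other scalings), with NPC2, a carrier of cholesterol out of lysosomes, at 109, 107 and 95.4 TPM in control and 55.3, 57.3 and 53.8 TPM in siMENA (-0.89 ± 0.058). Sterol and fatty acid genes rose in 15 of 37 cases and fell in 8 (18 to 21 higher and 4 to 7 lower under the other scalings), led by TM7SF2, a sterol reductase, from 9.79, 12.5 and 13.9 TPM to 24.97, 27.6 and 29.6 TPM (1.16 ± 0.11). Among p53 targets, 9 of 26 fell and 4 rose (13 of 26 called, where 49.4% of all tested genes were; 7 to 8 lower and 4 to 9 higher under the other scalings), with ZMAT3 at -0.83 ± 0.082, GADD45A at -0.76 ± 0.14 and BTG2 at 0.77 ± 0.12.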
